A study of Homo sapiens with 24 samples.

Results

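Kinesins, centrosome proteins, centromere proteins and the gamma-tubulin complex build and move the microtubules on which chromosomes are segregated, and several of them also carry cargo or build cilia. The set described here held every gene whose symbol begins with KIF and a digit, CEP and digits, CENP or TUBG, other than KIF11, pseudogenes and antisense genes, and that held a peak of N6-methyladenosine (m6A) in at least 1 of 4 deposited peak lists. These were 71 of the 9560 genes with a peak in any list. The reference annotation listed 108 protein-coding genes that met the symbol rule, and 37 of them had no peak in any list, among them the centromeric histone CENPA, the kinetochore motor CENPE, CEP290, KIF5C and TUBGCP4. By known role the 71 were divided into 12 mitotic and microtubule-end kinesins, 15 transport kinesins, 23 centrosome and cilium proteins, 15 centromere proteins and 6 proteins of the gamma-tubulin complex. The name transport kinesin stands here for every kinesin of the set outside the first group, whether or not it carries cargo, including KIF26A and the ciliary regulator KIF7. The first group is called mitotic kinesins for short, although it includes KIF24, which acts at centrioles.

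Human osteosarcoma cells of the U2OS line were either knocked out (KO) for METTL3 or wild type (WT), and all had been grown with 10 µM BrdU beforehand. They were exposed to UVC at a labelled dose of 50 J (plus UV) or not (minus UV), and the labels give 2 min of incubation before lysis. Polyadenylated RNA bound by an antibody against m6A (IP) and its input were sequenced, with 2 IP libraries for KO plus UV, 3 for KO minus UV, 4 for WT plus UV and 3 for WT minus UV. The labels do not say how many knockout clones were used, or whether replicates came from separate cultures. For each of these conditions 1 list of peaks was deposited, without a score, a read count or replicate values. No difference between conditions could therefore be tested against the spread between replicates, and the depth behind a peak is unknown. The 95% intervals below are exact Clopper-Pearson intervals, which cover counting error only and treat genes or peaks as independent.

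m6A is written on nuclear RNA by a complex of METTL3, the catalytic subunit, with METTL14 and further subunits, mostly at an adenosine within a short motif such as GGAC, and is enriched near stop codons and in long internal exons. It is read by YTH-domain proteins that affect the splicing, translation and decay of the RNA. The METTL3 transcript itself carried 2 peaks in KO plus UV, 1 in KO minus UV, 2 in WT plus UV and 2 in WT minus UV. Since a peak list measures no RNA or protein level, these counts are no check of the knockout. Of 10 osteoblast lineage markers, RUNX2, COL1A1, SPARC and SPP1 held a peak in some list and COL1A2, ALPL, BGLAP, IBSP, TWIST1 and SP7 held none. Among markers of other cell types, 2 of 6 epithelial, 0 of 5 blood and 2 of 5 neuronal genes held a peak in some list.

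Of the 71 genes, KO plus UV listed a peak on 35 (49.3%, interval 37.2 to 61.4), KO minus UV on 52 (73.2%, 61.4 to 83.1), WT plus UV on 61 (85.9%, 75.6 to 93) and WT minus UV on 57 (80.3%, 69.1 to 88.8). Over all genes with a peak in any list the shares were 57.7%, 72.9%, 83.4% and 74.6% in the same order, and each lay inside the interval of the 71 genes. The order of the lists, for these genes as for all, put WT plus UV highest and KO plus UV lowest, which are the lists with the most and the fewest IP libraries. A gene absent from a list may have carried less m6A, less RNA or fewer reads, and these cannot be told apart in a peak list.

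**Figure D1:**
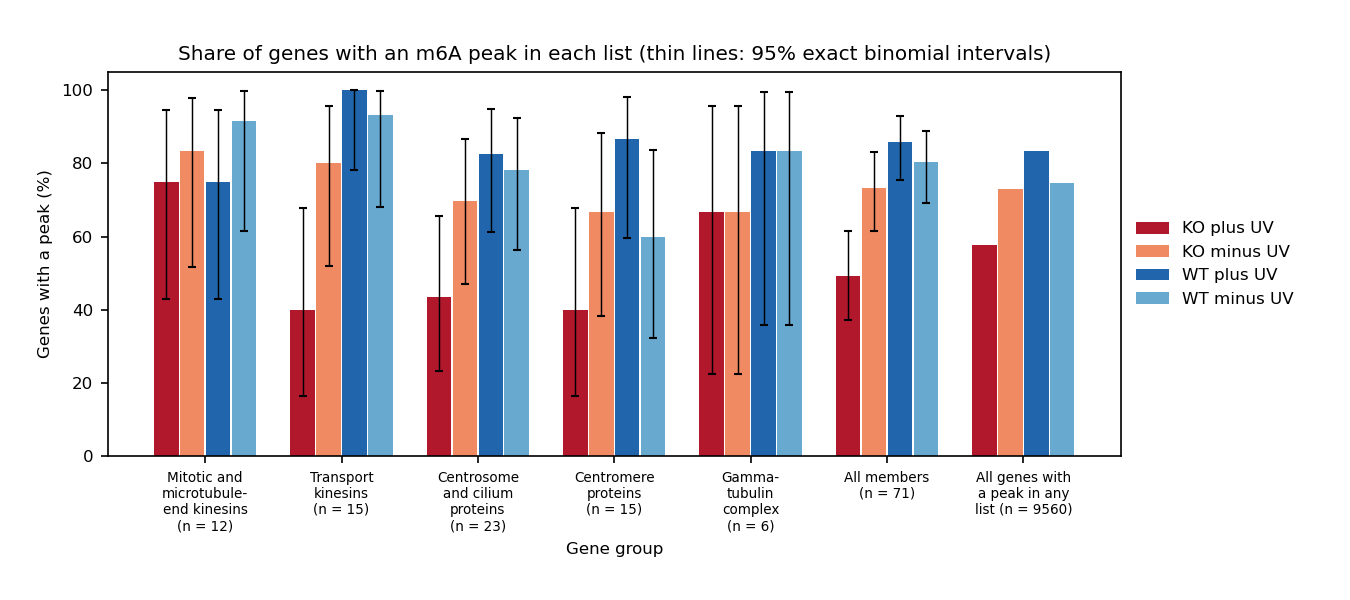
Share of genes with a peak (vertical axis, percent) in each gene group (horizontal axis), with 1 bar per list and 95% exact binomial intervals as thin lines; the last group shows all 9560 genes. KO plus UV is the lowest bar among the 71 genes, at 49.3%, and stands at 40.0% for transport kinesins and centromere proteins against 75% for mitotic kinesins, with wide intervals.

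The 71 genes held 60 peaks in KO plus UV, 121 in KO minus UV, 127 in WT plus UV and 112 in WT minus UV. The mean per gene with a peak was 1.71, 2.33, 2.08 and 1.96 in that order, beside 1.70, 1.97, 1.92 and 1.94 per transcript over all transcripts. Their median width was 176, 182, 190 and 182 bases, close to the 176, 182, 189 and 186 bases of all peaks. Peaks of 100 bases, the narrowest width listed, made up 14.3% of the peaks of the 71 genes in WT minus UV (16 of 112, interval 8.39 to 22.2) and 6.83% of all peaks of that list. Several of the 112 peaks share a transcript, which the interval does not take into account. In the other lists the share of 100-base peaks was 5% for KO plus UV, 6.61% for KO minus UV and 3.15% for WT plus UV, against 9.59%, 5.92% and 4.57% of all peaks.

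**Figure D2:**
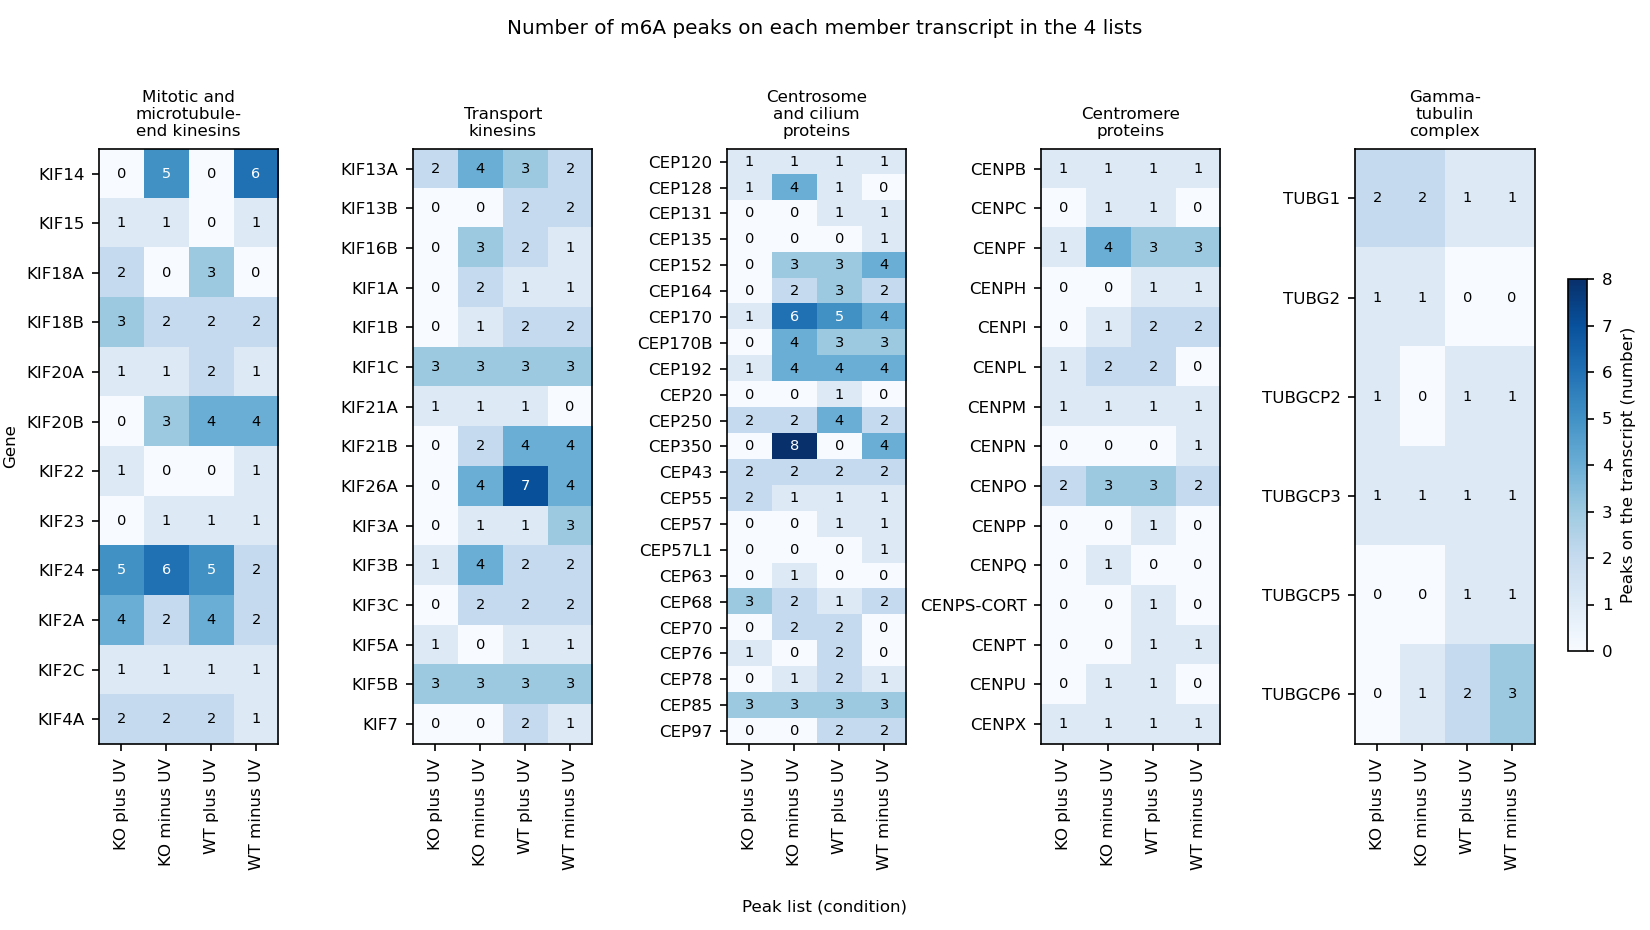
Number of peaks (colour and digits) on each of the 71 genes (rows, by role) in each list (columns). CEP350, with 8 peaks in KO minus UV, and KIF26A, with 7 in WT plus UV, hold the highest numbers, and both are at 0 in KO plus UV.

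All 4 lists held a peak on 25 of the 71 genes (35.2%), beside 41.2% of all genes. When peaks of all lists that overlapped on a transcript were joined, the 71 transcripts carried 175 regions, of which 32 (18.3%) were found in every list and 52 (29.7%) in a single list, beside 25.7% and 31.6% of all regions. Of the 25 genes, 24 had at least 1 region common to every list. CEP250, the centriole linker protein C-NAP1, was the exception: it had a peak in each list and no region that all of them shared. The same number of peaks in each list was found on 10 genes, which included CENPB, CENPX, CEP120, CEP85, KIF1C, KIF2C and TUBGCP3. The share over all genes was computed neither for equal numbers nor for a common region, so the 10 and the 24 stand without a background.

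The 8 genes with a peak in every list and the largest summed peak length were CENPO, CEP170, KIF24, KIF5B, CEP192, KIF2A, KIF13A and CEP85. CENPO, a subunit of the inner kinetochore (chromosome 2, 24793425 to 24822376, GRCh38), had 798 bases under peaks in KO plus UV, 1023 in KO minus UV, 992 in WT plus UV and 642 in WT minus UV. Its main region, at bases 1606 to 2090 of the transcript in KO plus UV and 1606 to 2124 in WT plus UV, was the widest of the set in KO plus UV, at 485 bases. A further peak stood in KO minus UV, at bases 2391 to 2585, and in WT plus UV, at 2387 to 2594, and in neither other list. CEP170, a subdistal appendage protein of the mother centriole, had 1 peak in KO plus UV and 6, 5 and 4 in KO minus UV, WT plus UV and WT minus UV, with the region around bases 2361 to 2550 common to all. CEP192, a scaffold that recruits kinases to the pericentriolar material, likewise had 1 peak in KO plus UV and 4 in each other list. Both have a transcribed pseudogene with peaks of its own in WT minus UV, 1 on CEP170P1 and 3 on CEP192P1, and reads that match a gene and its copy may be split between them. CEP85, a regulator of centriole duplication, had 3 peaks in each list, at bases 391 to 522, 711 to 950 and 2421 to 2537 in KO plus UV and at 341 to 523, 831 to 952 and 2331 to 2506 in WT minus UV. KIF13A, an endosomal kinesin, had 2 peaks in KO plus UV, 4 in KO minus UV, 3 in WT plus UV and 2 in WT minus UV.

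The distance between the centres of overlapping peaks, which the overlap itself keeps small, was measured for each pair of lists. For the 71 genes its median was 14 bases for WT plus UV against WT minus UV (84 peaks), 13.8 bases for KO plus UV against KO minus UV (46 peaks), 15.2 bases for KO minus UV against WT minus UV (76 peaks) and 16.5 bases for KO plus UV against WT plus UV (50 peaks). Over all genes the same distances were 9.5, 11, 13 and 12.5 bases. The median furthest peak end, a lower bound for transcript length, was 2551 bases on these transcripts and 1841.5 bases over all.

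Of 12 mitotic kinesins, 9 had a peak in KO plus UV, 10 in KO minus UV, 9 in WT plus UV and 11 in WT minus UV. KIF2C, the kinesin-13 that corrects chromosome attachments at centromeres (chromosome 1, 44739837 to 44767767), had 1 peak in each list, at bases 2371 to 2590 in KO plus UV, 2371 to 2570 in KO minus UV, 2361 to 2591 in WT plus UV and 2371 to 2591 in WT minus UV. The 4 lists placed this peak within 21 bases of each other at either end. KIF20A, which brings the chromosomal passenger complex to the spindle midzone, had a peak at bases 2972 to 3179 in KO plus UV, 2971 to 3175 in KO minus UV, 2980 to 3182 in WT plus UV and 2975 to 3188 in WT minus UV, and WT plus UV added 1 of 100 bases at 381 to 480. KIF18B, a kinesin-8 that shortens astral microtubules, had 3 peaks in KO plus UV and 2 in each other list. KIF23 had 0 peaks in KO plus UV and 1 in each other list, from base 2385 in KO minus UV, 2385 in WT plus UV and 2381 in WT minus UV. KIF20B, which acts in cytokinesis, had 0, 3, 4 and 4 peaks in that order of lists.

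WT plus UV listed all 15 transport kinesins (interval 78.2 to 100) and WT minus UV 14 (93.3%, 68.1 to 99.8), beside 83.4% and 74.6% of all genes. The exception in WT minus UV was KIF21A. KIF3B, a kinesin-2 chain of intraflagellar transport (chromosome 20, 32277651 to 32335011), had 1 peak over 141 bases in KO plus UV and 4 over 751 bases in KO minus UV, beside 2 over 461 bases in WT plus UV and 2 over 372 bases in WT minus UV. KIF3A, its partner chain, had 0, 1, 1 and 3 peaks in the same order. KIF1C, a kinesin-3, had 3 peaks in each list, and its peak from base 3411 in KO plus UV, 3401 in KO minus UV, 3451 in WT plus UV and 3401 in WT minus UV was shared by all. KIF1A and KIF1B, kinesin-3 motors of axonal transport, and KIF16B, which carries early endosomes, had 0 peaks in KO plus UV and 1 to 3 elsewhere. KIF21B, a motor that also regulates microtubule growth, had 0 peaks in KO plus UV, 2 in KO minus UV, 4 in WT plus UV and 4 in WT minus UV. Its peak that ended at base 2218 was found in all of the last 3 lists.

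Centrosome proteins with a peak in every list also included CEP120, CEP43, CEP55 and CEP68. CEP120, needed for centriole elongation, had 1 peak in each, at bases 2851 to 3010 in KO plus UV, 2817 to 2996 in KO minus UV, 2821 to 3010 in WT plus UV and 2820 to 3009 in WT minus UV. CEP68, a protein of the fibre that links centrioles, had 3 peaks in KO plus UV, 2 in KO minus UV, 1 in WT plus UV and 2 in WT minus UV, so KO plus UV was its highest list. CEP78 had 0, 1, 2 and 1 peaks in that order. Its WT minus UV peak, at bases 9 to 120, overlapped the WT plus UV peak at 18 to 120 and not the KO minus UV peak at 2331 to 2509. In the gamma-tubulin complex TUBGCP3 had 1 peak in each list, which began at base 2551 in both KO lists and 2546 in both WT lists.

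WT cells exposed to UV were set against unexposed WT cells to ask whether m6A peaks appear within minutes of damage. WT plus UV listed 11 of the 71 genes that WT minus UV did not (15.5%, interval 8 to 26.0), beside a background of 17.4% of all genes. WT minus UV listed 7 that WT plus UV did not (9.86%, 4.06 to 19.3), beside 8.61%. Both shares were near the background. When a peak had to span at least 150 bases, the 11 became 18 (25.4%), beside 17.9% of all genes. The 11 genes included CENPL, CENPC, CENPU, CENPP and CENPS-CORT, or 5 of the 15 centromere proteins, a difference between roles that was not tested. CENPN was the centromere protein with a peak in WT minus UV and none in WT plus UV.

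Among the mitotic kinesins, KIF18A, a kinesin-8 motor that aligns chromosomes at metaphase (chromosome 11, 28020619 to 28108156), carried 3 peaks in WT plus UV, at bases 37 to 140, 2129 to 2304 and 2379 to 2551, and 0 in WT minus UV. In KO cells it carried 2 peaks with UV, at bases 10 to 140 and 2371 to 2540, and 0 without UV. The listed positions thus overlapped between the genotypes at both ends of the covered stretch. CEP76, a centrosome protein that limits centriole reduplication (chromosome 18, 12661956 to 12702777), was the other of the 71 genes with a peak in both plus UV lists and neither minus UV list. It held 1 peak of 261 bases in KO plus UV and 2 peaks in WT plus UV. These 2 genes were 2.82% of the 71, beside 1.97% of all genes.

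Other genes had a peak with and without UV and further positions in the plus UV lists alone. KIF2A, a kinesin-13 that removes tubulin from microtubule ends, had 4 peaks in KO plus UV, 2 in KO minus UV, 4 in WT plus UV and 2 in WT minus UV. Its region at bases 641 to 886 stood in both plus UV lists alone. Another such region lay on CEP250 at bases 6015 to 6400. In all, 5 of the 175 regions (2.86%) stood in both plus UV lists alone, beside 1.98% of all regions. KIF24, a kinesin-13 that acts at centrioles and restrains ciliation (chromosome 9, 34252380 to 34333671), had 5 peaks over 915 bases in KO plus UV and 6 over 1047 bases in KO minus UV. In WT cells it had 5 over 988 bases with UV and 2 over 210 bases without. WT minus UV was therefore the low list for KIF24, and the 3 others differed from each other by at most 1 peak.

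The opposite pattern was held by KIF14 and CEP350. KIF14, a mitotic kinesin required for cytokinesis (chromosome 1, 200551497 to 200620751), had 0 and 5 peaks in KO cells with and without UV, and 0 and 6 in WT cells. Its peaks without UV covered 946 bases in KO and 1293 bases in WT. CEP350, a large centriole protein that anchors microtubules (chromosome 1, 179954810 to 180114875), had 0 and 8 peaks in KO cells with and without UV, and 0 and 4 in WT cells. All 4 of its WT positions overlapped KO minus UV peaks. These were the 2 genes of 71 (2.82%) with a peak in both minus UV lists and neither plus UV list, beside 2.27% of all genes. At the level of regions, 11 of 175 (6.29%) stood in both minus UV lists alone, beside 3.70% of all regions, and 8 of these 11 lay on KIF14 or CEP350, with 4 on each. The other 3 lay on CENPF, CEP250 and KIF20B.

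**Figure D3:**
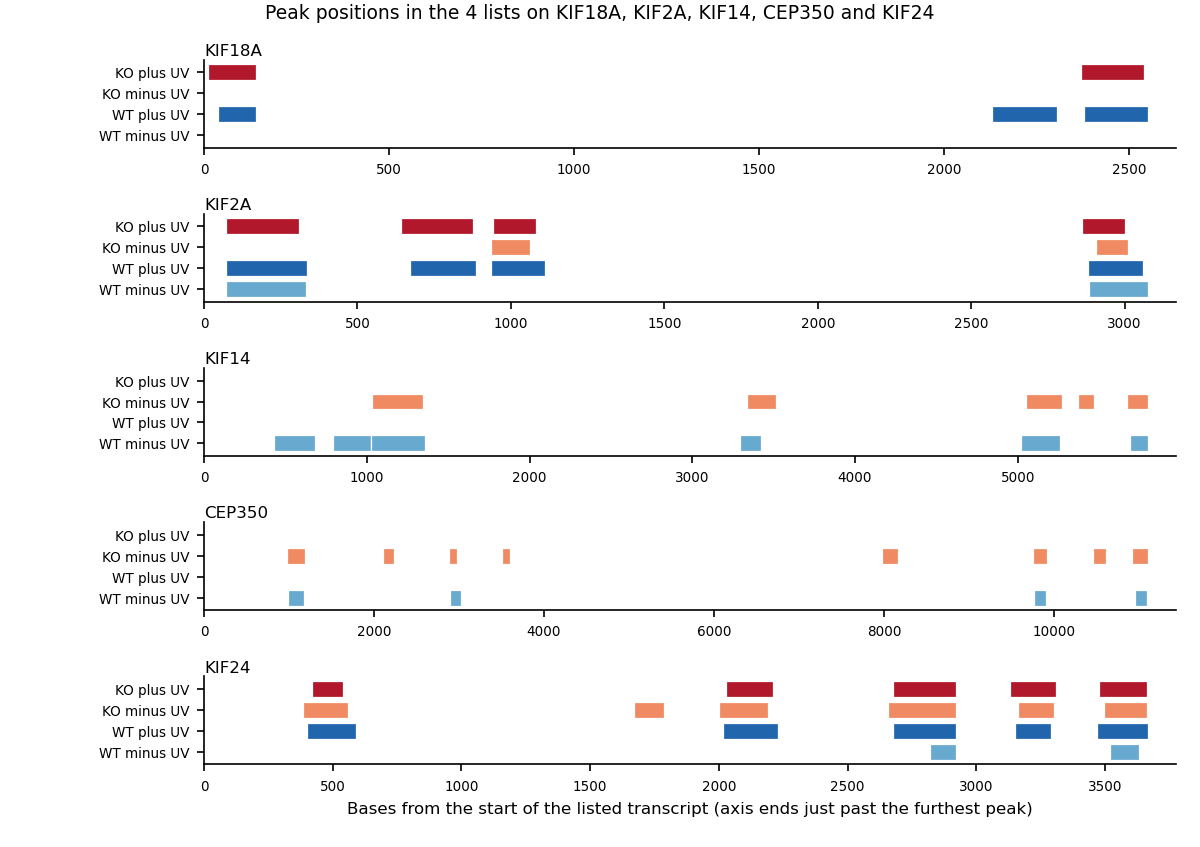
Peaks of the 4 lists (rows within each panel, 1 colour per list) along the listed transcripts of KIF18A, KIF2A, KIF14, CEP350 and KIF24, in bases from the transcript start. KIF18A has peaks in the plus UV lists alone, KIF14 and CEP350 in the minus UV lists alone, and KIF24 has 2 peaks in WT minus UV against 5 or 6 elsewhere.

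The remaining genes with a peak in WT plus UV and none in WT minus UV were CEP70, KIF21A, CEP20 and CEP128, with 2, 1, 1 and 1 peaks. In WT minus UV, CEP57L1, the cartwheel protein CEP135, the spindle motor KIF15 and the chromosome-arm motor KIF22 each had 1 peak that WT plus UV lacked. CENPN, at bases 111 to 210, and KIF22, at 191 to 290, rested there on a single 100-base peak. At the level of peaks, 43 of 127 peaks in WT plus UV (33.9%, interval 25.7 to 42.8) had no counterpart in WT minus UV, beside 30% of all peaks. In the other direction the value was 28 of 112 (25%, 17.3 to 34.1), beside 22.4%. On transcripts with a peak in both WT lists, 24.3% of the WT plus UV peaks (27 of 111, 16.7 to 33.4) had no overlap, beside 17.3%, as did 13.4% of the WT minus UV peaks (13 of 97, 7.33 to 21.8), beside 15%.

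The same comparison in KO cells asked whether peaks respond to UV without METTL3. A peak in KO plus UV and none in KO minus UV was found on 5 of the 71 genes (7.04%, interval 2.33 to 15.7), beside a background of 8.62%. A peak in KO minus UV and none in KO plus UV was found on 22 (31.0%, 20.5 to 43.1), beside 23.8%. There were 2 IP libraries for KO plus UV and 3 for KO minus UV. With each list kept to its widest peaks, about as many as the 9471 of the shortest list and with ties in width kept (9725 in KO minus UV), the 5 became 10 (14.1%), beside 16.3% of all genes. On the same widest peaks the 22 became 19 (26.8%), beside 17.4% of all genes. In the full lists the 5 were KIF18A, CEP76, TUBGCP2, KIF5A and KIF22. TUBGCP2, a core subunit of the gamma-tubulin complex, had 1 and 0 peaks in KO cells with and without UV and 1 in each WT list, and KIF5A, a conventional kinesin heavy chain best known from neurons, showed the same numbers.

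The 22 genes included 7 of the 15 transport kinesins: KIF26A, KIF16B, KIF3C, KIF21B, KIF1A, KIF1B and KIF3A. KIF26A (chromosome 14, 104138587 to 104180894) had 0 peaks in KO plus UV and 4 over 1019 bases in KO minus UV, beside 7 over 1885 bases in WT plus UV and 4 over 856 bases in WT minus UV. KIF3C, a heavy chain of kinesin-2, had 0 and 2 peaks in KO and 2 in each WT list, over 600, 568 and 434 bases. Of 15 transport kinesins, KO plus UV listed 6 and KO minus UV 12, whereas of 12 mitotic kinesins they listed 9 and 10. Whether the roles differ in this respect was not tested.

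Centrosome proteins among the 22 were CEP350, CEP170B, CEP152, CEP164, CEP70, CEP63 and CEP78. CEP152, which recruits the kinase that starts centriole duplication, had 0 and 3 peaks in KO cells with and without UV, and 3 and 4 in WT cells with and without UV. CEP170B had 0 and 4 in KO cells and 3 in each WT list. The others were KIF14, KIF20B, the centralspindlin motor KIF23, TUBGCP6, CENPC, CENPI, CENPQ and CENPU. Of 18 members on which KO minus UV listed 3 or more peaks, 7 (38.9%) had 0 in KO plus UV, beside 24.6% of all genes with as many. Members with a KO minus UV peak and no KO plus UV peak had a median genomic length of 71300 bases and those with a peak in both KO lists of 50366.5 bases, beside 41135 and 32295 bases over all genes. The part of gene length and of library number in this was not tested.

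By peaks, 14 of 60 peaks in KO plus UV (23.3%, interval 13.4 to 36.0) overlapped no KO minus UV peak, beside 22.6% of all. Against the widest KO minus UV peaks alone this share was 40.0%, beside 39.1% of all. Of the 121 peaks in KO minus UV, 74 (61.2%, 51.9 to 69.9) overlapped no KO plus UV peak, beside 47% of all, which lay below the interval. Several of the 121 peaks share a transcript, which the interval does not take into account. Of these 74, 50 (67.6%) lay on transcripts with no KO plus UV peak at all, beside 62.5% of all such peaks. On transcripts with a peak in both KO lists the share without overlap was 33.8% (23.0 to 46.0), beside 25% of all peaks, which lay inside the interval.

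**Figure D4:**
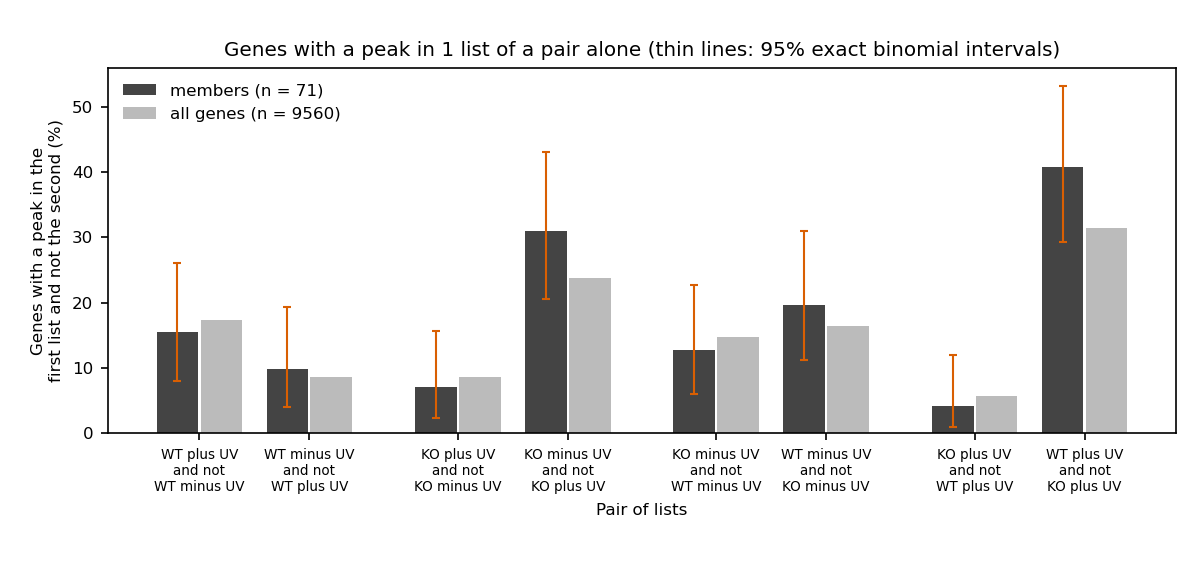
Percent of the 71 genes (dark bars, with 95% exact binomial intervals as thin lines) and of all 9560 genes (light bars) that hold a peak in the first list of a pair and none in the second. Each light bar lies within the interval of its dark bar, and the highest pair is WT plus UV without KO plus UV, at 40.8% and 31.4%.

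KO and WT cells without UV, with 3 IP libraries each, were compared to ask which peaks are listed with METTL3 present alone. A peak in KO minus UV and none in WT minus UV was found on 9 of the 71 genes (12.7%, interval 5.96 to 22.7), beside a background of 14.7%. A peak in WT minus UV and none in KO minus UV was found on 14 (19.7%, 11.2 to 30.9), beside 16.4%. With the widest peaks alone, 9725 in KO minus UV and 9489 in WT minus UV, the 9 became 14 (19.7%) and the 14 became 8 (11.3%), beside 14.9% of all genes in either direction. The 9 were CEP128, CEP70, CENPC, CENPL, CEP63, KIF21A, TUBG2, CENPQ and CENPU. CEP128, a subdistal appendage protein (chromosome 14, 80476969 to 80959502), had 1 peak in KO plus UV and 4 over 879 bases in KO minus UV, beside 1 of 100 bases in WT plus UV and 0 in WT minus UV. The 14 were led by KIF13B, CEP97, CEP57, CEP57L1, CEP135, CEP131, KIF7, KIF5A, TUBGCP5, TUBGCP2, CENPH and CENPN.

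With a peak in WT plus UV and WT minus UV and none in KO cells stood 8 genes (11.3%), beside 7.12% of all genes: CENPH, CENPT, CEP131, CEP57, CEP97, KIF13B, KIF7 and TUBGCP5. With the widest peaks alone the 8 became 4 (5.63%), beside 4.59% of all genes. KIF13B, a kinesin-3 motor (chromosome 8, 29067278 to 29263388), had 2 peaks in each WT list, at bases 4722 to 4930 and 5401 to 5613 with UV and 4721 to 4937 and 5391 to 5629 without. The ends of these peaks differed by at most 16 bases between the lists. CEP97, which caps centrioles and blocks cilium growth, also had 2 peaks in each WT list, of which the first overlapped and the second did not. KIF7, a ciliary regulator of Hedgehog signalling, had 2 in WT plus UV and 1 in WT minus UV. CENPT, which links the inner kinetochore to the NDC80 complex, had a peak at bases 1496 to 1664 with UV and 1611 to 1710 without. CENPH, another inner kinetochore subunit, had 1 peak in each WT list, as did the centriolar satellite protein CEP131, CEP57 and TUBGCP5. The TUBGCP5 peak lay at bases 95 to 257 with UV and 96 to 257 without.

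The reverse pattern, both KO lists and no WT list, was held by TUBG2 alone of the 71 genes (1.41%, beside 2.00% of all genes). TUBG2, one of the paired gamma-tubulin genes (chromosome 17, 42659284 to 42667006), had a peak at bases 920 to 1060 in KO plus UV and at 912 to 1060 in KO minus UV. Its neighbour TUBG1 (chromosome 17, 42609683 to 42615238) had a peak at bases 1761 to 1887 in both KO lists, 1721 to 1884 in WT plus UV and 1741 to 1883 in WT minus UV, and a further one at bases 1051 to 1220 in KO plus UV and 1021 to 1220 in KO minus UV, which neither WT list held. The transcripts of this pair are highly similar, and the sources used here do not say how reads that match both were assigned, so the paired KO peaks are uncertain as separate observations. Of the 175 regions, 3 stood in both KO lists alone, on TUBG1, TUBG2 and CEP128, and 14 in both WT lists alone, or 1.71% and 8%, beside 2.53% and 7.90% of all regions.

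Boundaries of single peaks differed between lists. CENPM, a subunit of the inner kinetochore (chromosome 22, 41927196 to 41947152), had its peak at bases 781 to 880 in both KO lists, at 731 to 857 in WT plus UV and at 731 to 858 in WT minus UV. KIF5B, the ubiquitous conventional kinesin heavy chain (chromosome 10, 32009015 to 32056425), had its first peak at bases 51 to 298 in KO plus UV and 45 to 250 in KO minus UV, beside 49 to 460 in WT plus UV and 50 to 470 in WT minus UV. At the other KIF5B peaks the genotypes did not part in this way: the last lay at bases 2661 to 2800 in KO plus UV and 2511 to 2836 in KO minus UV, beside 2501 to 2830 in WT plus UV and 2551 to 2830 in WT minus UV. These 2 genes were picked after their positions were seen.

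**Figure D5:**
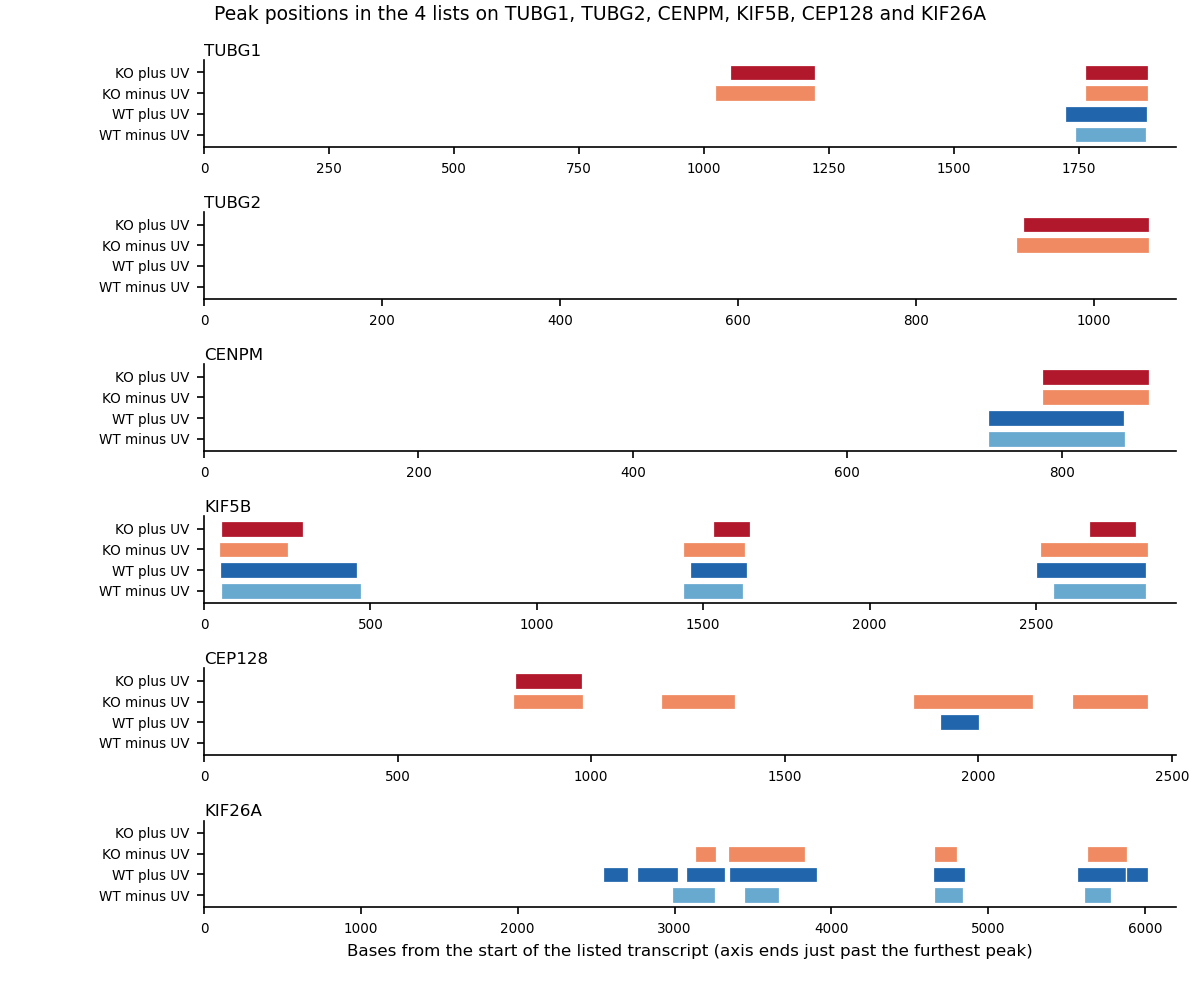
Peaks of the 4 lists (rows within each panel, 1 colour per list) along the listed transcripts of TUBG1, TUBG2, CENPM, KIF5B, CEP128 and KIF26A, in bases from the transcript start. The first TUBG1 peak and the TUBG2 peak stand in the KO lists alone, and the first KIF5B peak ends at base 298 or 250 in KO and at 460 or 470 in WT.

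Of the KO minus UV peaks, 45 of 121 (37.2%, interval 28.6 to 46.4) had no counterpart in WT minus UV, beside 31.1% of all peaks. Of the WT minus UV peaks, 37 of 112 (33.0%, 24.4 to 42.6) overlapped no KO minus UV peak, beside 32.1%. Where a transcript held a peak in each of these lists, the shares were 29% (20.6 to 38.5) for KO and 21.9% (14.1 to 31.5) for WT, beside 19.8% and 18.3% of all peaks. The lower end of the KO interval, 20.6, was above the 19.8% of all peaks; several of these peaks share a transcript.

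With UV, a peak in KO and none in WT was found on 3 of the 71 genes (4.23%, interval 0.880 to 11.9), beside a background of 5.68%: KIF15, TUBG2 and KIF22. A peak in WT plus UV and none in KO plus UV was found on 29 (40.8%, 29.3 to 53.2), beside 31.4%. The KO list rests on 2 IP libraries and the WT list on 4. With the widest peaks alone the 3 became 8 (11.3%), beside 17.2% of all genes, and the 29 became 20 (28.2%), beside 21.1%. By total peak length the 29 were led by KIF26A, CEP170B, KIF21B, CEP164, KIF20B, TUBGCP6, KIF3C, CEP152, KIF13B, CENPI, KIF1B and CEP70. CEP164, a distal appendage protein needed for cilium assembly, had 0 peaks in KO plus UV and 3 over 661 bases in WT plus UV, and TUBGCP6 had 0 and 2. Of the KO plus UV peaks, 10 of 60 (16.7%, 8.29 to 28.5) overlapped no WT plus UV peak, beside 19.3% of all. With the widest peaks alone this share was 43.3%, beside 43.0% of all. Of the WT plus UV peaks, 77 of 127 (60.6%, 51.6 to 69.2) overlapped no KO plus UV peak, beside 51.0% of all, which lay just below the interval. Several of the 127 peaks share a transcript, which the interval does not take into account. With peaks of at least 150 bases the share was 70.2%, beside 55.4% of all. On transcripts with a peak in both plus UV lists the share was 28.6% (18.4 to 40.6), beside 25.5% of all peaks.

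Centromere proteins can be followed complex by complex. CENPB, which binds alpha-satellite DNA, CENPX, which works with CENPS at kinetochores and in DNA repair, and CENPM had 1 peak in each list. CENPF, a large protein of the outer kinetochore, had 1 peak in KO plus UV and 4, 3 and 3 in KO minus UV, WT plus UV and WT minus UV, and a peak that ended between bases 9523 and 9527 was common to all. CENPC, which binds the centromeric nucleosome, had a peak at bases 1176 to 1500 in KO minus UV and 1165 to 1470 in WT plus UV, and none in KO plus UV or WT minus UV. CENPU, a partner of the spindle kinase PLK1, showed the same pattern, with a peak from base 1 to 120 in KO minus UV and to 169 in WT plus UV. CENPL had 1 peak in KO plus UV, 2 in KO minus UV, 2 in WT plus UV and 0 in WT minus UV. CENPI had 0 and 1 in KO cells with and without UV and 2 in each WT list, its region at bases 197 to 399 being in the WT lists alone. CENPQ had 1 peak in KO minus UV, and CENPP and CENPS-CORT 1 each in WT plus UV. CENPS-CORT is a readthrough gene that overlaps CENPS, and the listed transcript does not separate them.

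Peaks that began within 100 bases of the transcript start were found on 14 of the 71 genes (19.7%), beside 30.4% of all genes. They made up 7 of 60 peaks in KO plus UV (11.7%, interval 4.82 to 22.6), 6 of 121 in KO minus UV (4.96%, 1.84 to 10.5), 9 of 127 in WT plus UV (7.09%, 3.29 to 13) and 6 of 112 in WT minus UV (5.36%, 1.99 to 11.3). Over all genes the shares were 14.3%, 11.8%, 13.7% and 12.7%, and in the lists other than KO plus UV they lay above the interval of the 71 genes. Several of the counted peaks share a transcript, which the intervals do not take into account. The part of transcript length and of peak number per transcript was not tested. KIF4A, a chromosome-bound motor that sets the length of the spindle midzone, had a start peak at bases 13 to 180 in KO plus UV, 11 to 170 in KO minus UV and 11 to 170 in WT plus UV, and none in WT minus UV. Of 11 genes with a peak that reached bases 1 to 50, 9 were in a RefSeq promoter table of build GRCh38.p14 with the start at the outer end of the gene. The letters GGAC, the core of the m6A consensus, occurred on the sense strand of those first 50 bases in 3 of the 9, beside 4 of the other 46 members in the table and 18.8% of all genes there. Over all genes it occurred in 20.3% of those with a peak over bases 1 to 50 and in 18.9% of those with a peak elsewhere. The reverse complement GTCC occurred in 2 of the 9 and in 17.4% of all. The base at the gene start was A in 6 of the 9 and in 25 of the other 46 members. It was A in 44.1% of all genes there, in 51.7% of those with a peak over bases 1 to 50 and in 44.5% of those with a peak elsewhere. Which modified base the antibody bound at these starts was not tested. Of the starts shown, 3 hold GGAC and 3 do not. They are given as stretches of 30 bases, 5′ to 3′ on the sense strand, to set the letters beside the peaks, with GGAC in capitals.
KIF18A (chr11:28108113-28108142, minus strand, bases 15 to 44 from the gene start): agcgctgggaggcGGACattaaagtgaagt
KIF4A (chrX:70290124-70290153, plus strand, bases 21 to 50): gagaacggggaagGGACatttagtttggtg
CEP192 (chr18:12991364-12991393, plus strand, bases 3 to 32): tgccctgGGACacctcttcagtccgtGGAC
CENPU (chr4:184734067-184734096, minus strand, bases 1 to 30): agcttccagtcgctcgagagcggagagcgg
KIF15 (chr3:44761794-44761823, plus strand, bases 1 to 30): agtcgcgcgcggtgcagtcgggaggtggag
CEP55 (chr10:93496612-93496641, plus strand, bases 1 to 30): aaactcccggaagcggcatccacacctgat
The GGAC of KIF18A, at bases 28 to 31, lay inside the KO plus UV peak from base 10 and just before the WT plus UV peak from base 37. That of KIF4A, at bases 34 to 37, lay inside the peak in each of the 3 lists that had it, and CEP192, with GGAC at bases 10 to 13 and 29 to 32, had a peak over bases 1 to 103 in WT minus UV alone. CENPU, KIF15 and CEP55, the last a protein of the midbody that directs abscission, had start peaks without GGAC in the table's first 50 bases. Whether the listed transcript begins at the table's start is not given, and a match of letters is not a site.

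Other spindle, centrosome and kinetochore genes, from a list of 54 that are no members of the set, held a peak in 41 cases. Of these 41, 24 (58.5%) had a peak in KO plus UV, 27 (65.9%) in KO minus UV, 36 (87.8%) in WT plus UV and 31 (75.6%) in WT minus UV, and 16 in every list, among them PCNT, NIN, NDC80, AURKB, TPX2 and NUMA1. The shares over all genes were 57.7%, 72.9%, 83.4% and 74.6% in that order, and 41.2% had a peak in every list. With peaks in both plus UV lists and neither minus UV list stood KIFC2, KLC4 and SPC25, and with the reverse AKAP9, a centrosomal scaffold with 5 peaks in each minus UV list, and KNL1, with 5 in KO and 1 in WT. Of all genes, 1.97% held the first of these patterns and 2.27% the reverse. KIFC1 was the one gene of that list found in KO cells with and without UV and never in WT cells, whereas PCM1, ALMS1, NEDD1, INCENP and PRC1 were among those found in WT cells with and without UV and never in KO cells. Of all genes, 2.00% held the KO pattern and 7.12% the WT pattern.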

How the data were processed

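Libraries of immunoprecipitated and input RNA were read from one end, per the labels' protocols. The submitters' processing notes name TopHat2 2.0.14 and hg38. The sources used here do not give the peak caller, its threshold or how replicates were pooled. Each deposited list holds RefSeq accessions with a peak's start and end on the transcript (unit: other) and empty name and score fields. Positions were taken as counted from 1 with both ends included, since the narrowest peaks then span 100 bases. Transcripts were matched to symbols through a RefSeq gene table (GRCh38.p14), and 9563 of 9674 (98.9%) matched. None of the 71 member transcripts had a copy number after its accession.

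The members and lists were chosen with earlier results of these data known. Peaks were shared if they overlapped by at least 1 base. Percentages over all genes or peaks serve as background. Members were named by comparison and direction, up to the 12 longest by total peak length, with all members of the patterns by genotype or UV, the 8 longest in every list and all CENP and TUBG genes. Conditions were compared by counts without a test, each having a single list. Intervals came from scipy 1.17.1. Simulated lists with known overlaps were used to test the code. Alternatives were a minimum width of 150 bases, lists kept to about equal size by width, joining of near peaks, other overlap rules, genes or covered bases in place of peaks, the KO plus UV list left out, copy-numbered transcripts left out and a start window of 200 bases.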

Additional observations from a re-analysis of the deposited data

Results flagged for a closer look

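The number of members with a peak moved in opposite directions with UV in the genotypes: KO plus UV minus KO minus UV gave -17 (35 and 52 members), and WT plus UV minus WT minus UV gave 4 (61 and 57). The shares over all genes moved the same way, at 57.7% and 72.9% in KO cells with and without UV and 83.4% and 74.6% in WT cells. This difference was not tested, since each condition has 1 list. The lists rest on 2, 3, 4 and 3 IP libraries in the order KO plus UV, KO minus UV, WT plus UV and WT minus UV, and the part of library number was not tested. With each list kept to its widest peaks, about as many as the shortest list holds, the members with a peak were 35, 44, 47 and 38 in that order. The shares over all genes were not computed for these counts.

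In 3 members, CENPC, CENPU and CEP70, the KO peaks stood without UV alone and the WT peaks with UV alone, and in 1 member, KIF22, the reverse was found. These were 4.23% and 1.41% of the members, beside 3.82% and 0.701% of all genes. The peaks of KIF22 spanned 113 bases in KO plus UV and 100 bases in WT minus UV. These differences were not tested.

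Outside the members, the pseudogene CENPBD2P held 3 peaks in WT plus UV and 0 in WT minus UV, while KO plus UV had 0 and KO minus UV had 1.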

How the results depend on the processing

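Of 114 recomputed values for 26 results, 100 stayed within 1.5 times the count or inside the 95% interval of the share, and 14 did not. Some of the 100 could not move. No member transcript has a copy number, so leaving out copy-numbered transcripts could change no value. Joining near peaks cannot change which genes have a peak, so the counts of members under that setting were fixed too. With peaks of at least 150 bases, 18 members had a peak in WT plus UV and not WT minus UV, and 70.2% of WT plus UV peaks had no overlap in KO plus UV. With each list kept to its widest peaks (about as many as the shortest list holds, ties kept), which drops narrow peaks from every list but KO plus UV, the members listed in one condition and not the other were 10 for KO plus UV over KO minus UV, 8 for KO plus UV over WT plus UV, 14 for KO minus UV over WT minus UV and 8 for the reverse. Peaks without overlap were then 40.0% for KO plus UV against KO minus UV, 47.7% for KO minus UV against WT minus UV and 43.3% for KO plus UV against WT plus UV. Members found in WT cells alone, with and without UV, were then 4, and in KO cells alone 2. Without the KO plus UV list, an alternative chosen after seeing the data, the last count was 3. For the 2 and the 3 the share over all genes was not computed. Counted by genes, 18% of the members in WT plus UV and 12.3% of those in WT minus UV lacked a peak in the other WT list. Over all genes of these lists the shares were 20.8% and 11.5%. No paired analysis was possible because each list pools its replicates, and for the same reason no replicate could be left out. Depth is unknown, so an absent peak sets no limit on m6A.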
